A study of Mus musculus with 16 samples.

Results

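The 45 genes described here encode complement components, complement regulators, the chains of fibrinogen, clotting factors and the proteins that limit clotting or dissolve clots. They were chosen by gene symbol from a fixed list, and all 45 were found among the 17003 genes of the expression table. Liver mRNA was sequenced from male mice of 8 weeks on normal chow, labelled as fed, with 1 library per mouse. The 8 mice labelled Fgl1 WT, here called Fgl1 LWT, carried floxed Fgl1 alleles without CRE, and the 8 Fgl1 LKO littermates carried the same alleles with CRE under the albumin promoter, which acts in hepatocytes and leaves the alleles of other liver cells intact. The question asked of the comparison is what the loss of hepatocyte FGL1, a secreted protein of the fibrinogen family, did to the liver transcriptome. The methods give a smaller group size. All 16 libraries are used here.

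Most complement and clotting proteins of the plasma are made by hepatocytes. In complement, C1 and the mannose-binding lectins start proteolytic cascades that meet at the cleavage of C3 and end in the membrane attack complex. In clotting, the contact and tissue factor pathways activate prothrombin, and thrombin then turns fibrinogen into fibrin. Fibrinogen, C3 and several other members are acute-phase proteins, whose synthesis in the liver rises with inflammatory cytokines, in large part through the factors STAT3, C/EBP and NF-kB.

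The upstream sequences of 5 members are shown as description, and no value below was tested against them. Fga, Fgb and Fgg encode the chains of 1 protein and varied together, C3 is the point where the complement pathways meet, and C8a is a terminal component. Each line gives the 250 bases before the annotated start in the direction of the gene (RefSeq, GRCm38.p6; Fga at chr3:83025903-83026152, Fgb at chr3:83049864-83050113, Fgg at chr3:83007474-83007723, C3 at chr17:57228137-57228386 and C8a at chr4:104876399-104876648; Fga and Fgg on the plus strand and the others on the minus strand). Capitals mark matches to the STAT-type motif TTCNNNGAA, the C/EBP-type motif TTGCNNAA, the NF-kB-type motif GGANTTTCC or the HNF1-type motif GTTAAT, searched on both strands.
Fga: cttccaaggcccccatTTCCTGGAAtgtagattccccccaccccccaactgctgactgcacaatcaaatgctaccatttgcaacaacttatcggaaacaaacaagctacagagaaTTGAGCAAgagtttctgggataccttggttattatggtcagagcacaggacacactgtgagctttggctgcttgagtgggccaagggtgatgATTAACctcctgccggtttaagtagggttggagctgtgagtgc
Fgb: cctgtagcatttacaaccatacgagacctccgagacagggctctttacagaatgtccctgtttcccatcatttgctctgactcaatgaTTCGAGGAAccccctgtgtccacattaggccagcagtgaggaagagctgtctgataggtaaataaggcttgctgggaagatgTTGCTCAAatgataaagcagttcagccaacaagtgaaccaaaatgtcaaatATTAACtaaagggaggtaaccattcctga
Fgg: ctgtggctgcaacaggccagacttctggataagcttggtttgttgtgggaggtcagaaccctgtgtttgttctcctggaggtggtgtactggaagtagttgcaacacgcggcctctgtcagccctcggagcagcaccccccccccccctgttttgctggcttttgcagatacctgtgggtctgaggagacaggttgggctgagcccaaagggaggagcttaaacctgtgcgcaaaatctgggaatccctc
C3: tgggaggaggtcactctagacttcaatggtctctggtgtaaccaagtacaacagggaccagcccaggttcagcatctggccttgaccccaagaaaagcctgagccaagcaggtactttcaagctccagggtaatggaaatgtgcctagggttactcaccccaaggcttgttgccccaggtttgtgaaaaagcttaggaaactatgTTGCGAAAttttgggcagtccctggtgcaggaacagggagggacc
C8a: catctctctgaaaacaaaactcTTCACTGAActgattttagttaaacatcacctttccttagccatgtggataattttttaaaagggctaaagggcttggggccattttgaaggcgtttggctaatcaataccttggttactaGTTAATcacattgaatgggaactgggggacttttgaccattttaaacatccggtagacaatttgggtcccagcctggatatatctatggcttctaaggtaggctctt
In Fga, a STAT-type match began 234 bases before the start, a C/EBP-type match 135 and an HNF1-type match 43 bases before it. Fgb had the same 3 kinds of match, in the same order, at 162, 80 and 29 bases. Fgg had none of these letters in its 250 bases, C3 had a C/EBP-type match at 45 bases, and C8a had a STAT-type match at 228 and an HNF1-type match at 107 bases. No match overlapped another in these 5 sequences. Of the 45 members, 37 had an entry in the RefSeq table. A STAT-type match was present in 8 of them (21.6%, against 7.18% of all 27025 genes of the table), a C/EBP-type match in 11 (29.7% against 9.55%), an NF-kB-type match in 1, F3 (2.70% against 1.05%), and an HNF1-type match in 13 (35.1% against 6.52%). These are matches of letters and not shown to be binding sites.

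On GRCm39 (GENCODE annotation), the members lie on 16 chromosomes, several of them side by side. Fgg (chr3:82915030-82922363), Fga (chr3:82933383-82940934) and Fgb (chr3:82947448-82957170) lie within one stretch of chromosome 3, where Fgb runs in the opposite direction to the other two. Cfb and C2 lie 19 bp apart on chromosome 17, C1ra and C1s1 6895 bp apart on chromosome 6, and C8b and C8a 10303 bp apart on chromosome 4. Hrg, Kng2 and Kng1 follow each other on chromosome 16.

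The values are FPKM, fragments scaled to transcript length and library size, so that levels can be set beside each other between genes. Sequencing depth is unknown, since the table holds no counts. Summed FPKM lay between 673153 and 786188, and between 14116 and 14407 genes were above 0 in each library. Fgl1, the deleted gene, had 158, 312 and 1331 FPKM (lowest, median and highest) in the 8 Fgl1 LWT mice and 13.2, 50.3 and 89.99 FPKM in the 8 Fgl1 LKO mice. The genotypes did not overlap in Fgl1 (two-sided exact permutation test, p = 0.000155, which is the lowest value that 8 against 8 mice allow), while its adjusted p over all genes was 0.0725 (limma; log2 fold change -3.11 on the log2(FPKM + 1) scale). Albumin, the defining product of hepatocytes, had 31146 to 61191 FPKM.

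All 45 members passed the filter on low values, a mean of at least 0.1 FPKM. They made up 2.80% to 5.11% of the summed FPKM of a library. Fibrinogen stood above the rest, with means over the 16 mice of 5045 FPKM for Fgb, 3580.3 FPKM for Fgg and 3091 FPKM for Fga, and the chains alone were 33.6% to 56.9% of the members' FPKM. Another 4 members had a mean of 1000 FPKM or more. These were C3 (2218), the central component of complement, Vtn (1885), vitronectin, which inhibits the membrane attack complex, Plg (1309), plasminogen, and Kng1 (1219.8), kininogen. A further 26 members had means between 100 and 1000 FPKM and 10 between 10 and 100 FPKM. F3, tissue factor (1.42 FPKM), and Tfpi, the tissue factor pathway inhibitor (2.30 FPKM), were the only members under 10 FPKM.

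**Figure D1:**
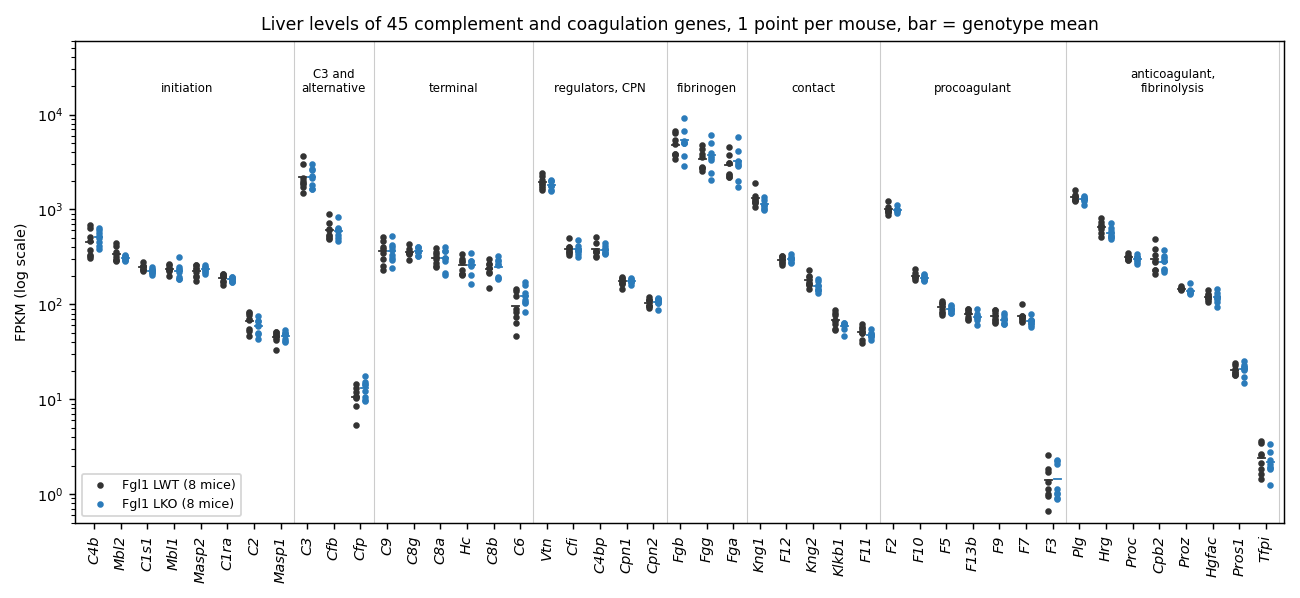
Level of each member in each of the 16 livers, in FPKM on a log axis, grouped by role; points are mice and short bars are genotype means (8 Fgl1 LWT in black, 8 Fgl1 LKO in blue). The fibrinogen chains are the highest, F3 and Tfpi the lowest, and the genotypes overlap in every member.

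Within complement, the initiation genes ranged from Masp1 (mean 46.0 FPKM), a serine protease of the lectin pathway, to C4b (481 FPKM), which encodes C4. The other members were Mbl2 (325 FPKM) and Mbl1 (232 FPKM), the mannose-binding lectins, Masp2 (229 FPKM), C1s1 (235 FPKM) and C1ra (187 FPKM), the proteases of C1, and C2 (62.6 FPKM). C1ra, C1s1 and C4b have near-identical copies (C1rb, C1s2 and C4a), so that reads could have been divided between them. Of the alternative pathway, Cfb, factor B, had 605 FPKM and Cfp, properdin, which is mostly a product of myeloid cells, 11.8 FPKM. The terminal components ranged from C6 (109.6 FPKM) to C9 (361 FPKM) and C8g (361 FPKM), with C8a (308 FPKM), Hc (258 FPKM), which encodes C5, and C8b (244 FPKM) between them. Among regulators, Cfi, factor I, had 382 FPKM and C4bp, the C4b-binding protein, 379 FPKM, and the subunits of carboxypeptidase N, which inactivates anaphylatoxins, had 176 FPKM (Cpn1) and 106 FPKM (Cpn2).

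Within clotting, the contact system ranged from F11 (49.6 FPKM) and Klkb1 (63.8 FPKM), which encode factor XI and plasma prekallikrein, through Kng2 (166 FPKM) and F12 (298 FPKM) to Kng1. Kng1 and Kng2 are paralogs and could also share reads. The procoagulant factors were led by F2, prothrombin (997 FPKM), followed by F10 (195 FPKM), F5 (90.6 FPKM), F13b (77.0 FPKM), F9 (71.8 FPKM) and F7 (70.3 FPKM). Below plasminogen, the anticoagulant and fibrinolytic group held Hrg, histidine-rich glycoprotein (613 FPKM), Proc, protein C (308 FPKM), Cpb2, the carboxypeptidase TAFI that protects fibrin from lysis (293 FPKM), Proz, protein Z (143 FPKM), Hgfac, the activator of hepatocyte growth factor (119 FPKM), and Pros1, protein S (20.4 FPKM).

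No member differed between genotypes at an adjusted p under 0.05 (limma on log2(FPKM + 1), Benjamini-Hochberg over 12770 genes), and the background was the same, 0 of 12770 genes or 0%. At an unadjusted p under 0.05, 3 of 45 members passed (6.67%), against 895 of all genes (7.01%). The genotypes overlapped in all 45 members, and of all genes only Fgl1 and Fitm2, named after its values were seen, did not overlap (2 genes, 0.0157%). The median log2 fold change of the members was -0.028 against 0.014 over all genes, and 18 of the 45 estimates were above 0, against 7126 of 12770. For 39 members, both bounds of the 95% interval of the log2 fold change were within 0.5 of 0, and the widest departures the intervals allowed were -0.46 for C2 and 0.88 for C6.

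The fibrinogen chains, the members closest to FGL1 in sequence family, showed no detectable difference. Fgb had 3417, 4368 and 6705 FPKM (lowest, median and highest) in Fgl1 LWT mice and 2881, 5065 and 9153 FPKM in Fgl1 LKO mice. Fgg had 2539.8, 3181 and 4778 FPKM against 2044, 3576 and 6021 FPKM, and Fga 2203, 2729 and 4530.4 FPKM against 1734, 3009 and 5789 FPKM. The Fgl1 LKO group held both the lowest and the highest mouse for each chain. The log2 fold changes were 0.13 ± 0.21 (SE) for Fgb, 0.09 ± 0.20 for Fgg and 0.08 ± 0.22 for Fga (two-sided exact permutation tests over all assignments of 8 and 8 mice, p = 0.543, 0.675 and 0.732). Their signs turned without the lowest run of mouse numbers, 36 to 38, which holds only 3 Fgl1 LWT mice (-0.07, -0.10 and -0.11). The runs are 4 groups of close mouse numbers, formed here from the library names. The labels do not say whether they are batches.

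The 5 members with the smallest p were all lower in Fgl1 LKO mice, and none passed the adjustment (adjusted p 0.696 for each). C1s1 had 225, 244 and 277 FPKM in Fgl1 LWT mice and 202, 226 and 245 FPKM in Fgl1 LKO mice, a log2 fold change of -0.12 ± 0.06 (SE; exact permutation p = 0.0163, not adjusted). In 7 of 8 Fgl1 LKO mice C1s1 lay below the Fgl1 LWT median. Hrg, which binds heparin and plasminogen, had 516, 662 and 810.2 FPKM against 485, 541 and 719.7 FPKM (-0.21 ± 0.10; exact p = 0.0553). Kng2 had 144, 168 and 232 FPKM against 132, 148 and 184 FPKM (-0.20 ± 0.10; exact p = 0.0584). For Klkb1, all 8 Fgl1 LKO mice, with 46.2, 60.8 and 64.0 FPKM, lay below the Fgl1 LWT median of 67.0 FPKM, while the Fgl1 LWT mice reached down to 53.8 FPKM and up to 87.5 FPKM (-0.20 ± 0.10). This estimate of Klkb1 was -0.08 with the run as a term and -0.05 without the run 36 to 38. F7, the factor that binds tissue factor, had 64.8, 72.7 and 99.8 FPKM against 57.4, 65.3 and 79.5 FPKM (-0.17 ± 0.08, and -0.11 without mouse 7 of the Fgl1 LWT group).

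By role, the estimates of the 22 complement members were divided, with 12 above 0 and a median of 0.009. Of the 20 clotting and fibrinolysis members, 17 had an estimate below 0 (median -0.074), and none of them was called. Of all 12770 genes, 5644 had an estimate below 0, and the difference between these shares was not tested. The count of clotting and fibrinolysis members below 0 was 16 to 17 with median-ratio scaling, equal summed FPKM or quantile normalization. For complement, the count above 0 fell to 6 with the run as a term, so that its direction was not stable. C6 had the largest estimate of all members, with 45.9, 86.7 and 145 FPKM in Fgl1 LWT mice and 83.0, 117 and 173 FPKM in Fgl1 LKO mice (0.43 ± 0.21, adjusted p = 0.697). With the run as a term its estimate was 0.16, and without the run 36 to 38 it was 0.17, while that of C2 went from -0.17 to -0.38 in both. Leaving out mouse 2 of the Fgl1 LWT group, which held the lowest value of C6, of Cfp and of C8b, left 0 members at an unadjusted p under 0.05, and so did leaving out mouse 1 or mouse 2 of the Fgl1 LKO group.

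Within each genotype, the livers differed widely in the level of acute-phase genes. Saa1, serum amyloid A, had 63.8, 531 and 16268 FPKM in Fgl1 LWT mice and 68.4, 2359 and 7669 FPKM in Fgl1 LKO mice. A score was formed for each mouse as the mean log2(FPKM + 1) of 6 acute-phase genes that are not members (Saa1, Saa2, Orm1, Orm2, Lcn2 and Hp). It ran from 6.17 to 12.4 in Fgl1 LWT mice (median 7.55) and from 6.22 to 11.2 in Fgl1 LKO mice (median 9.35), a difference in means of 0.33 (exact permutation test, two-sided, p = 0.76). A slope is given below as the log2 change of a gene per unit of this score with genotype as a term in the fit. The mice were not assigned to different scores, so that the slopes describe how genes vary together across livers.

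With this score, 14 of 45 members passed the threshold and all 14 rose (31.1%), against 221 of 12764 genes in either direction (1.73%), of which 84 rose (0.658%) and 137 fell. With median-ratio scaling, 18 members were called, all higher, beside 108 rising and 47 falling genes. With equal summed FPKM 7 members rose, beside 73 rising and 234 falling genes, and with quantile normalization 7 rose, beside 89 rising and 70 falling genes. At an unadjusted p under 0.05, 27 of 45 members (60%) and 18.6% of all genes passed. The median slope of the members was 0.039 and that of all genes -0.013. Of the 22 complement members 10 rose, of the 3 fibrinogen chains 2 rose, and of the 20 clotting and fibrinolysis members 2 rose. The difference between these counts was not tested. None of the 5 contact and 7 procoagulant genes passed.

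**Figure D2:**
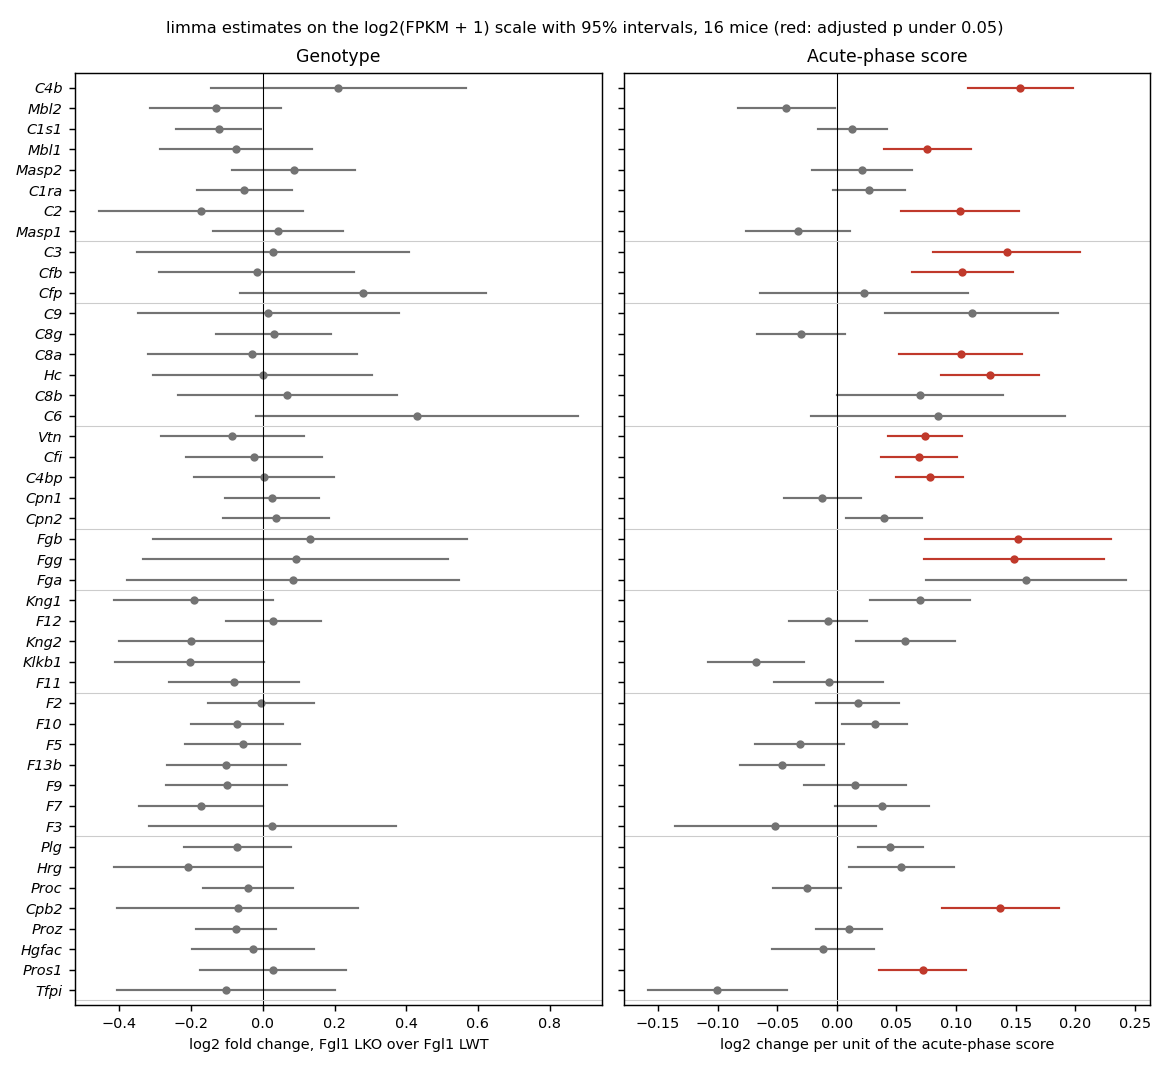
Estimates for the 45 members with 95% intervals, grouped by role in the same order in both panels: left, log2 fold change of Fgl1 LKO over Fgl1 LWT mice; right, log2 change per unit of the acute-phase score (limma, 16 mice; red, adjusted p under 0.05). No member is red on the left and 14 are on the right, all above 0.

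These calls depended on the mice and terms included. All 14 slopes stayed above 0 in all 32 alternatives. When the fit held a term for the run, 1 member passed (C3), without the run 36 to 38 2 passed (C3 and C4bp), and without the 3 mice of the highest score, an alternative chosen after seeing the data, none did. Score and run are partly confounded, since the 3 mice of the run 36 to 38 had low scores (6.17, 6.44 and 6.45). In fits within a genotype, 1 passed in Fgl1 LWT mice (Cpb2) and none in Fgl1 LKO mice, each with 8 mice. Leaving out mouse 1, 2, 3, 5 or 7 of the Fgl1 LWT group left 8, 7, 6, 5 and 6 of the 14, and leaving out mouse 1, 3, 4 or 5 of the Fgl1 LKO group left 9, 5, 9 and 6. C4b, Cpb2 and Hc were past the threshold in each of these 9 fits.

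Among initiation genes, C4b had the steepest slope. It had 308, 417 and 680.1 FPKM (lowest, median and highest) in Fgl1 LWT mice and 383, 509 and 642 FPKM in Fgl1 LKO mice, and its slope was 0.15 ± 0.02 (SE; adjusted p = 0.000966). Over the range of the score, this slope spans a 1.94-fold change, and the 3 mice of the highest score had 638.9, 642 and 680.1 FPKM. C2, the C3 convertase subunit cleaved together with C4, had 46.5, 69.3 and 83.0 FPKM against 42.6, 60.2 and 75.2 FPKM, with a slope of 0.10 ± 0.02 (adjusted p = 0.0356). Mbl1 had 198, 235 and 268 FPKM against 183, 224 and 318 FPKM, with a slope of 0.08 ± 0.02 (adjusted p = 0.0377). Its paralog Mbl2 had 287, 327 and 444 FPKM against 283, 308 and 329 FPKM and a slope of -0.04 ± 0.02 (adjusted p = 0.251). The C1 proteases had slopes of 0.03 (C1ra) and 0.01 (C1s1), and the lectin pathway proteases -0.03 (Masp1) and 0.02 (Masp2), none past the threshold.

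C3 had 1473, 1960.3 and 3632 FPKM in Fgl1 LWT mice and 1629, 2194 and 2986 FPKM in Fgl1 LKO mice, and rose by 0.14 ± 0.03 per unit of the score (adjusted p = 0.0236). The 3 mice of the highest score had the 3 highest C3 values, from 2986 to 3632 FPKM. Cfb, which carries the protease of the alternative convertase, had 490.4, 573 and 888 FPKM against 467, 598 and 827 FPKM, with a slope of 0.11 ± 0.02 (adjusted p = 0.0153). Cfp had 5.34, 10.7 and 14.6 FPKM against 9.57, 13.2 and 17.7 FPKM and a slope of 0.02 ± 0.04.

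The terminal components were unequal. Hc had 202, 253 and 342 FPKM in Fgl1 LWT mice and 163, 263 and 349 FPKM in Fgl1 LKO mice, with a slope of 0.13 ± 0.02 (adjusted p = 0.00272), and C8a had 249, 309 and 388 FPKM against 205, 308 and 401 FPKM, with a slope of 0.10 ± 0.02 (adjusted p = 0.0416). C9 (0.11 ± 0.03), C6 (0.08 ± 0.05) and C8b (0.07 ± 0.03) had slopes above 0 that did not pass (adjusted p 0.0966, 0.386 and 0.268). C8g, which encodes the lipocalin-like chain of C8, had 291, 353 and 436 FPKM against 323, 361 and 400.0 FPKM and a slope of -0.03 ± 0.02 (adjusted p = 0.377). The chains of C8 are secreted as 1 protein, yet the ratio of C8a to C8g ran from 0.515 to 1.23 between mice (coefficient of variation 24.5%), while that of C8b to C8a, whose genes are neighbours, ran from 0.593 to 0.917 (12.1%).

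Among regulators, C4bp, a cofactor of factor I, had 318, 361 and 512 FPKM in Fgl1 LWT mice and 341, 374 and 438 FPKM in Fgl1 LKO mice, and rose by 0.08 ± 0.01 per unit (adjusted p = 0.00723). Vtn had 1620.0, 1885 and 2427 FPKM against 1564, 1790.4 and 2054 FPKM and rose by 0.07 ± 0.01 (adjusted p = 0.0199). Cfi, which cleaves C3b and C4b, had 332, 375 and 496 FPKM against 312, 371 and 472 FPKM and rose by 0.07 ± 0.02 (adjusted p = 0.0297). Of carboxypeptidase N, the slope was 0.04 ± 0.02 for the regulatory subunit Cpn2 (adjusted p = 0.177) and -0.01 ± 0.02 for the catalytic subunit Cpn1 (adjusted p = 0.703).

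**Figure D3:**
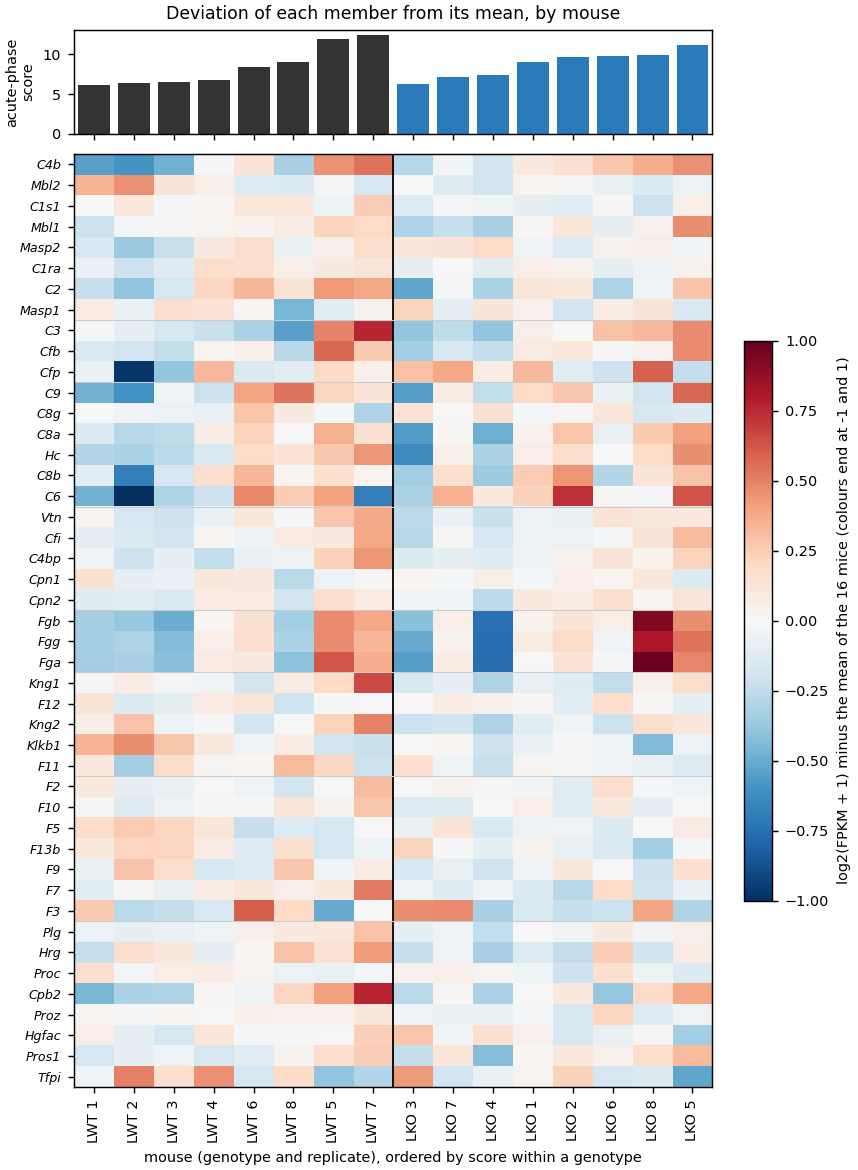
Deviation of each member from its own mean over the 16 mice, on the log2(FPKM + 1) scale (colours end at -1 and 1), with mice ordered by the acute-phase score within each genotype; bars on top give the score. The fibrinogen chains move as 1 block and are highest in mouse 8 of the Fgl1 LKO group. Proz and, apart from F3, the procoagulant rows are pale.

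The fibrinogen chains had slopes as steep as that of C4b, with a wider spread. Fgg rose by 0.15 ± 0.04 per unit (adjusted p = 0.0442) and Fgb by 0.15 ± 0.04 (adjusted p = 0.0447). These calls were among the least stable of the 14, since Fgg passed in 11 and Fgb in 10 of 32 alternatives, and neither passed with equal summed FPKM, quantile normalization or a run term. Fga had a slope of 0.16 ± 0.04 and lay just outside the threshold (adjusted p = 0.0509). The highest chain values were in mouse 8 of the Fgl1 LKO group, with 9153 FPKM of Fgb, 6021 of Fgg and 5789 of Fga, although its score of 9.85 was exceeded by 3 other mice. The lowest were in mouse 4 of that group, with 2881, 2044 and 1734 FPKM at a score of 7.35.

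The 3 chains varied together. Across the 16 mice, Pearson's r of log2 FPKM was 0.989 for Fga and Fgb, 0.990 for Fga and Fgg and 0.989 for Fgb and Fgg, and Spearman's rho was 0.959, 0.985 and 0.953 (permutation p = 2e-05 for each, the smallest that 100000 resamples can give, and 2e-05 after adjustment over the 3 pairs). Without the 2 mice farthest from the median, r was 0.979, 0.985 and 0.984. The summed level of the chains ran from 6658 to 20964 FPKM, a coefficient of variation of 31.6%. Against this, Fgb over Fga was 1.48 to 1.80 (4.95%) and Fgg over Fga 1.04 to 1.25 (5.09%). Mice that were high in 1 chain were thus high in the others, and the order Fgb over Fgg over Fga held in all 16 livers.

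**Figure D4:**
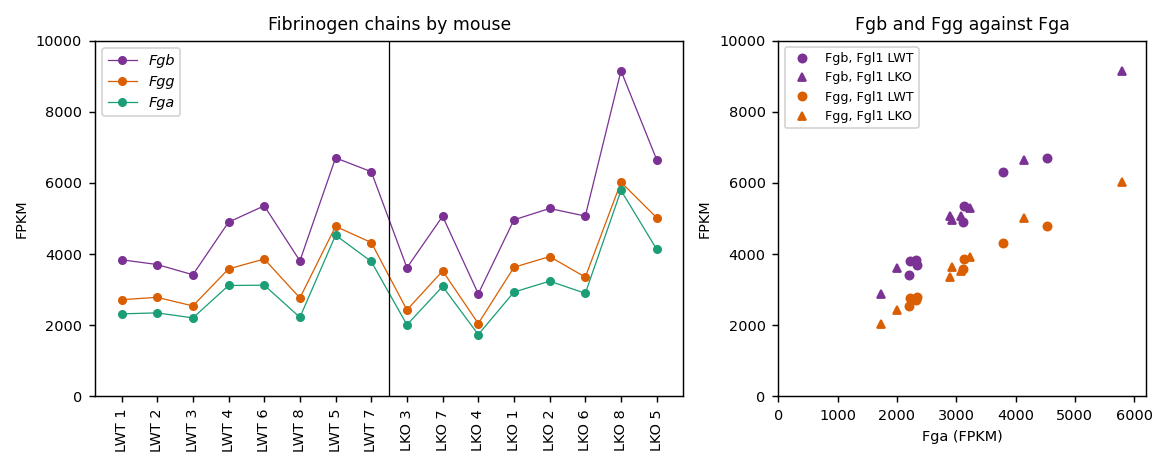
Left, FPKM of the fibrinogen chains in each mouse, ordered by acute-phase score within each genotype; right, Fgb and Fgg against Fga, 1 point per mouse and gene. The curves keep the order Fgb, Fgg, Fga in every mouse, from 1734 FPKM of Fga in mouse 4 to 9153 FPKM of Fgb in mouse 8 of the Fgl1 LKO group.

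In the contact system, no member passed and the slopes were of both signs. Klkb1 had a slope of -0.07 ± 0.02 (adjusted p = 0.0744), and the 3 mice of the highest score had 53.8, 55.4 and 60.5 FPKM, below the median of the 16 mice. The kininogens had slopes of 0.07 ± 0.02 (Kng1, adjusted p = 0.0782) and 0.06 ± 0.02 (Kng2, adjusted p = 0.133). Kng1 had 1058, 1231 and 1902 FPKM in Fgl1 LWT mice and 977, 1123 and 1361 FPKM in Fgl1 LKO mice, with the highest value in mouse 7 of the Fgl1 LWT group, the mouse of the highest score. The slopes of F11 and F12 were both -0.01.

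Apart from F3, the procoagulant factors had an SD across the 16 mice of 0.11 to 0.18 on the log2(FPKM + 1) scale, against 0.42 to 0.46 for the fibrinogen chains. F2 had 875, 978 and 1229.7 FPKM in Fgl1 LWT mice and 917, 982 and 1115 FPKM in Fgl1 LKO mice, with a slope of 0.02 ± 0.02 and a 95% interval of -0.02 to 0.05. F13b, the carrier subunit of factor XIII, had the slope of largest size among hepatocyte factors of this group (-0.05 ± 0.02, adjusted p = 0.153). The slopes of F10, F7, F9 and F5 were 0.03, 0.04, 0.02 and -0.03, none past the threshold. F3 had 0.66, 1.24 and 2.58 FPKM against 0.88, 1.07 and 2.27 FPKM and a slope of -0.05 ± 0.04, at a level where the pseudocount of 1 compresses changes.

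Among the genes that limit clotting or lysis, Cpb2 had 207, 282 and 485 FPKM in Fgl1 LWT mice and 219, 286 and 372 FPKM in Fgl1 LKO mice, and rose by 0.14 ± 0.02 per unit (adjusted p = 0.00669). Pros1, the cofactor of protein C, had 17.8, 19.3 and 24.1 FPKM against 14.8, 21.3 and 25.4 FPKM and rose by 0.07 ± 0.02 (adjusted p = 0.0442). Proc, the gene of protein C itself, had 292, 308 and 345 FPKM against 266, 305 and 343 FPKM, with a slope of -0.03 ± 0.01 (adjusted p = 0.332). Plg (0.04 ± 0.01, adjusted p = 0.0811) and Hrg (0.05 ± 0.02, adjusted p = 0.181) had slopes above 0, and those of Proz and Hgfac were 0.01 and -0.01.

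Tfpi, which in the body is mostly made by endothelial cells, had 1.45, 2.38 and 3.59 FPKM in Fgl1 LWT mice and 1.25, 2.00 and 3.34 FPKM in Fgl1 LKO mice. Its slope was the lowest of all members (-0.10 ± 0.03, adjusted p = 0.0702), and the 3 mice of the highest score had 1.25, 1.45 and 1.64 FPKM. Markers of sinusoidal endothelial cells moved with the score in the same direction. All 6 had a slope below 0 with an unadjusted p under 0.05, and 3 passed the adjustment (Stab2 -0.14, Kdr -0.20 and Oit3 -0.20), while their summed level was 48.0 to 110.0 FPKM in Fgl1 LWT and 32.0 to 127.6 FPKM in Fgl1 LKO mice. Of all 12764 genes, 8789 had a slope below 0, and the difference between these shares was not tested. Marker slopes are given without alternative scalings or a run term. In whole liver, fewer cells of a type and less RNA per cell cannot be told apart, and the part of cell composition in any slope was not tested.

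Markers of other cells also moved with the score. Of 6 hepatocyte markers 2 fell (Ttr -0.10 and Cps1 -0.08; summed level 50245 to 84258 FPKM in Fgl1 LWT and 46146 to 67298 FPKM in Fgl1 LKO mice), of 6 stellate cell markers 1 fell (Rgs5 -0.10; 107 to 174 and 81.2 to 221 FPKM), and of the 3 neutrophil markers tested 1 rose (S100a9 0.40; 1.00 to 33.4 and 3.34 to 27.3 FPKM, Ly6g included). At an unadjusted p under 0.05, 3 of 6 hepatocyte, 5 of 6 stellate cell and all 3 neutrophil markers tested passed. Those of hepatocytes and stellate cells had slopes below 0 and those of neutrophils slopes above 0. Of the hepatocyte markers, only Cyp3a11 had a slope above 0 (0.24 ± 0.16, adjusted p = 0.451). After adjustment, none of 6 Kupffer cell, 4 cholangiocyte, 3 lymphocyte or 3 platelet markers passed. Without adjustment, 1 cholangiocyte marker (Sox9 0.08) and 1 platelet marker (Itga2b -0.05) had a p under 0.05. No marker of these lists was at 0 in all mice, and none differed between genotypes at an adjusted p under 0.05. Before adjustment, 2 Kupffer cell markers had a genotype p under 0.05, both higher in Fgl1 LKO mice (log2 fold change 0.38 for Adgre1 and 0.37 for Vsig4). The median over the 6 Kupffer cell markers was 0.20.

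**Figure D5:**
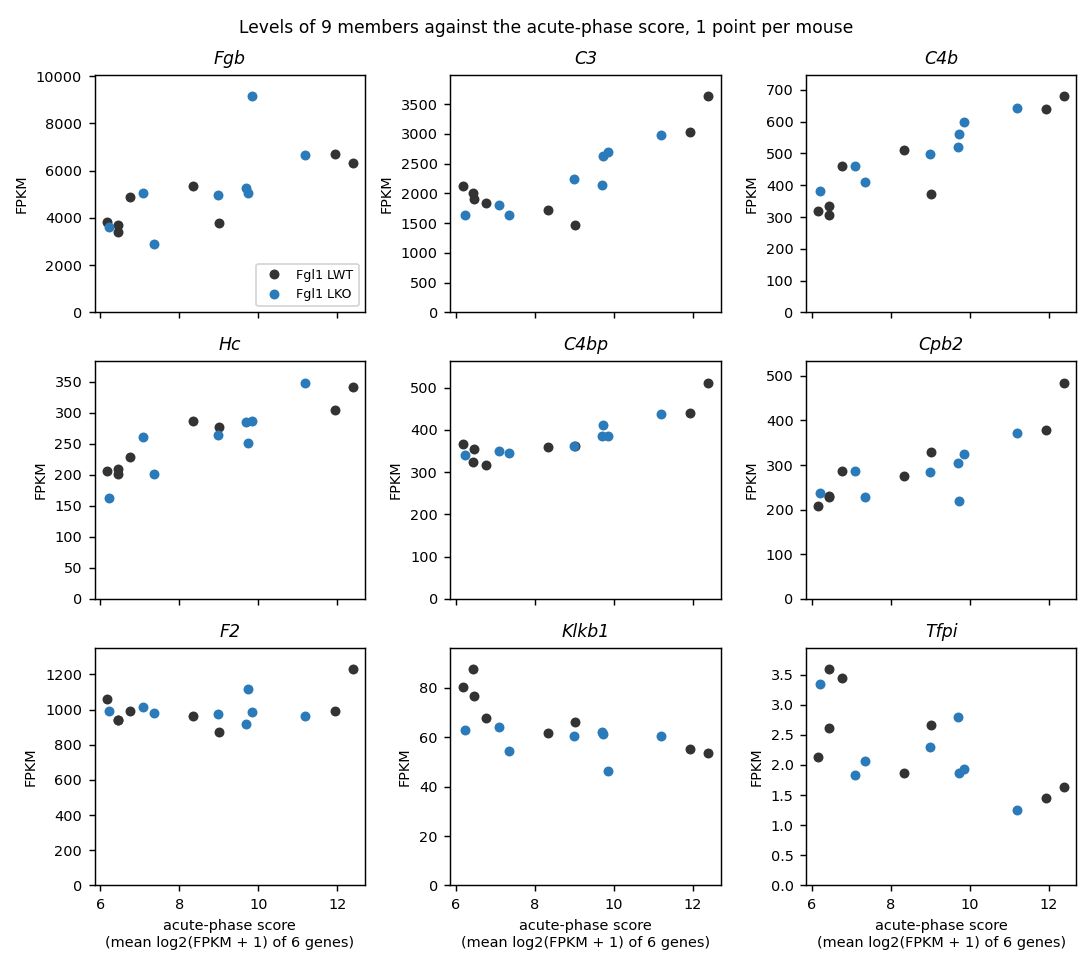
FPKM of 9 members against the acute-phase score (mean log2(FPKM + 1) of 6 genes), 1 point per mouse, Fgl1 LWT in black and Fgl1 LKO in blue; each vertical axis starts at 0. C3, C4b, Hc, C4bp, Cpb2 and Fgb are higher in mice of high score, F2 is near level, and Klkb1 and Tfpi, which did not pass the threshold, are lower.

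No member had a different slope in the 2 genotypes at an adjusted p under 0.05, and neither did any of 12764 genes (0%, limma, term for genotype by score). At an unadjusted p under 0.05, 4 members passed (8.89%), against 972 of all genes (7.62%). For Mbl1 and C8a, the slope in Fgl1 LKO mice minus that in Fgl1 LWT mice was 0.09 and 0.11, and fits within a genotype gave slopes above 0 in both. For Masp2 and Hgfac this difference was -0.10 and -0.12, with slopes of 0.05 and 0.03 in Fgl1 LWT mice and -0.04 and -0.09 in Fgl1 LKO mice. For the fibrinogen chains the difference was 0.09 for Fgb, 0.11 for Fga and 0.12 for Fgg (unadjusted p = 0.264, 0.213 and 0.127, limma).

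Of 42 other genes of these pathways, 40 were measured above the filter. None differed between genotypes (0 called, 2 at an unadjusted p under 0.05). With the score, 4 rose and 1 fell. Serpina10, the protein Z-dependent protease inhibitor, rose by 0.21 ± 0.04 per unit (119.8 to 430.1 FPKM over the 16 mice, adjusted p = 0.0105), while Proz itself had a slope of 0.01 ± 0.01. Clu, clusterin, rose by 0.11 ± 0.01 (826 to 1461 FPKM, adjusted p = 0.000742), and Serping1, the C1 inhibitor, by 0.10 ± 0.01 (494 to 806 FPKM, adjusted p = 0.00141). Clusterin and the C1 inhibitor restrain complement, as do factor I, the C4b-binding protein and vitronectin among the members. Other complement regulators on the list did not rise past the threshold. The slopes of Cd55, Cd59a and Cd46 (0.04 to 0.39 FPKM for Cd46) were -0.09, -0.03 and -0.04, and that of Cr1l was 0.01. Vwf, von Willebrand factor, an endothelial product, fell by 0.09 on the log2 scale per unit (0.27 to 1.33 FPKM, adjusted p = 0.0411), beside the endothelial markers above.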

How the data were processed

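Liver mRNA of 16 mice was sequenced as stranded paired-end libraries (DNBSEQ). The authors filtered the reads, aligned them to mm39 with HISAT and to reference genes with Bowtie2, and deposited 1 table of FPKM values with 2 decimals. Versions, the counting step and the annotation are not given in the sources used here. The deposited values are no counts, so no count test was used and depth is unknown. All 16 columns of values were assigned, and no pair of mice was identical.

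Of 17003 genes, 12770 averaged 0.1 FPKM or more and were kept, and log2(FPKM + 1) was fitted with limma 3.58.1 (R 4.3.3; eBayes with trend, two-sided, Benjamini-Hochberg over all genes, threshold 0.05). The fits were genotype, then genotype with the acute-phase score (the 6 score genes left out, 12764 genes), then their product. The fits were tested on simulated data. Single genes were compared by exact permutation tests (Python 3.11.15, scipy 1.17.1). Positions are from GENCODE (GRCm39), and upstream sequences from RefSeq (GRCm38.p6).

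The members, role groups, marker and pathway lists and the score were chosen with earlier results of these data known. All members are named; given in full were the fibrinogen chains, the 5 of smallest genotype p, the members past the slope threshold (up to 3 per role group) and the highest and lowest of each group. Genes of the other pathway list were named if past a threshold, except 1 gene that is counted but whose values are not reported here. Cd55, Cd59a, Cd46 and Cr1l were named beside the regulators that rose. C1rb, C1s2 and C4a were named for their likeness to members. C8 chain ratios and the 3 mice of the highest score were chosen after their values were seen. Alternatives were other scalings, filters and pseudocounts, a run term, a replicate block, array weights, robust variances and leaving out mice.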

Additional observations from a re-analysis of the deposited data

Results flagged for a closer look

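In 4 of 92 sets of 8 values (46 genes in each genotype), 1 mouse stood apart from the other 7 by more of the whole range than Dixon's 95% critical value, and chance alone gives about 1 in 20, or 4.6. Masp1 had 33.1 FPKM in mouse 8 of the Fgl1 LWT group, the next lowest mouse having 42.3 FPKM (gap 0.547 of the range). F7 had 99.8 FPKM in mouse 7 of that group, the next highest having 75.6 FPKM (0.643), and Kng1 had 1902 FPKM in the same mouse, the next highest having 1386 FPKM (0.54). Proz had 165.9 FPKM in mouse 6 of the Fgl1 LKO group, against 140.8 FPKM in the next (0.621). Mouse 7 of the Fgl1 LWT group also had the highest acute-phase score (12.4), and mouse 8 the lowest scaling factor by median ratios (0.905). The part of either in these values was not tested.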

How the results depend on the processing

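No alternative called a member by genotype. Over all genes, 1 was called by genotype (0 in the fit reported) with equal summed FPKM, with a run term, without the run 36 to 38, with the replicate block and with the score as a term, and 0 when any mouse was left out. The fibrinogen genotype differences turned below 0 with a run term (Fga -0.0563, Fgb -0.0214, Fgg -0.0575) and without the run 36 to 38 (-0.108, -0.0714, -0.0969). Leaving out 1 mouse gave -0.0496 to 0.199 for Fga and -0.0167 to 0.206 for Fgg, both below 0 only without mouse 8 of the Fgl1 LKO group. The cause was not tested.

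For the acute-phase slope, 14 members and 221 genes were called. Members called were 7 with equal summed FPKM, 7 with quantile normalization, 22 with array weights, 1 with a run term, 2 without the run 36 to 38, 1 without the 2 mice farthest from the median score, 1 in Fgl1 LWT mice alone, 0 in Fgl1 LKO mice alone and 0 without the 3 mice of the highest score (chosen after seeing the data). All genes called were 1382 with array weights, 21 with a run term, 27 without the run 36 to 38, 24 without the 2 farthest mice, 55 in Fgl1 LWT mice, 4 in Fgl1 LKO mice and 1 without the 3 mice of the highest score. Leaving out 1 mouse gave 5 to 16 members and 58 to 421 genes. The settings with fewer mice also have less power. The slope of Mbl2 turned from -0.0423 to 0.00813 with a run term and to 0.00545 in Fgl1 LKO mice. Genes called for a difference in slope were 1 with equal summed FPKM, 2 with array weights and 0 to 2 when a mouse was left out. The correlations of the fibrinogen chains kept their size, with Pearson's r of 0.979 to 0.992 over all alternatives and Spearman's rho down to 0.930 (Fgb and Fgg without the 2 mice farthest from the median).

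The labels number the mice 1 to 8 in both genotypes, but same-numbered mice did not deviate together (correlations -0.16 to 0.45 over 8 pairs, 3 of them over 0.1), so the numbers are not taken as pairs. With the replicate block, 0 members and 0 genes were called for the slope, 6 of the 14 members keeping an unadjusted p under 0.05, and 1 gene was called by genotype. Depth is unknown, so that no counting error can be given.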
